A study of Mus musculus with 2 samples.

Results

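The mitochondrial carriers of the SLC25 family are the proteins that move nucleotides, phosphate, amino acids, carboxylic acids and cofactors across the inner mitochondrial membrane. The members were taken by name: every gene whose symbol starts with Slc25a, pseudogenes left out (Slc25a5-ps had no row in the counts). This gave 47 of the 25004 genes in the counts, carried by 84 of 41449 RefSeq transcript accessions. The rule uses names only and no measured value.

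The counts come from whole hearts of FvB/N mice aged 12 weeks, with messenger RNA selected on poly-T beads and sequenced from a kit that keeps the strand of origin. The non-transgenic library, referred to as the control, was made from 3 hearts combined. The transgenic library, also of 3 combined hearts, came from mice whose transgene encodes a cardiac myosin binding protein-C that has lost the C0-C1f region of its amino terminus (cMyBP-C delta C0-C1f). The labels give neither the promoter that drives the transgene nor the sex of the mice. The study set these 2 kinds of heart side by side to find differences in messenger RNA. With 1 library per group there is no replicate and no test, and every interval covers counting error alone.

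An SLC25 carrier is a single small protein that opens in turn to the cytosol and to the matrix and usually exchanges one solute for another. In the beating heart, ADP and phosphate have to enter the matrix and ATP has to leave it, so the ADP/ATP carriers and the phosphate carrier work in series with ATP synthase. Other carriers bring in fatty acyl groups as carnitine esters, move reducing equivalents in the malate-aspartate shuttle, or supply the matrix with coenzyme A, NAD, S-adenosylmethionine, glutathione and iron.

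The control library held 170543 counts and the transgenic library 190824, which makes 1 count 5.86 and 5.24 CPM (counts scaled to a common total). Mybpc3, the gene of the protein itself, had 344 and 398 counts, a ratio of transgenic over control of 0.920 (95% interval 0.794 to 1.07) once normalised for library size. The transgene and the mouse's own gene are not told apart in these counts. Of 8 cardiomyocyte marker genes, 6 had a count, with 4794 and 7923 counts in all, and Tnnt2 and Myl3 were at 0. The normalised ratio of the marker sum was 1.31 (1.27 to 1.36). The haemoglobin genes were at 0 in both libraries. Of all counts, 72.2% in the control and 67.9% in the transgenic library lay on genes that share exon bases with an opposite-strand gene. The strand setting of the counting is not given in the sources used here, so how far a count follows the level of its own gene's messenger RNA is not known. In whole hearts, fewer cells of a type and less RNA per cell cannot be told apart either.

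Within the family the ADP/ATP carriers held most of the counts, and they were also the members counted higher in the transgenic heart, Slc25a4 only without centring by strand class. Slc25a4, the heart and muscle form, had 444 counts in the control and 889 in the transgenic library. Slc25a5, the widely expressed form, had 5 and 30. The phosphate carrier Slc25a3 had 112 and 153. None of the other members that could be compared was counted higher or lower by the rule used here.

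The rule was as follows. A ratio of normalised counts, transgenic over control, was formed wherever a library held more than 3 counts of a gene, and a gene was counted as higher or lower when the ratio was at least 1.5-fold from 1 with its counting interval on the same side of 1. Of the 47 members, 13 had a ratio, 14 had a few counts but no ratio, and 20 had no count in either library. Of the 13, 2 were higher, 0 were lower and 11 had an interval that held 1. Among all 4236 genes with a ratio, 3.42% were higher and 5.9% were lower. The median log2 ratio of the 13 members was 0.12, beside 0.05 over all genes with a ratio, and 9 members lay above 1 and 4 below it.

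**Figure D1:**
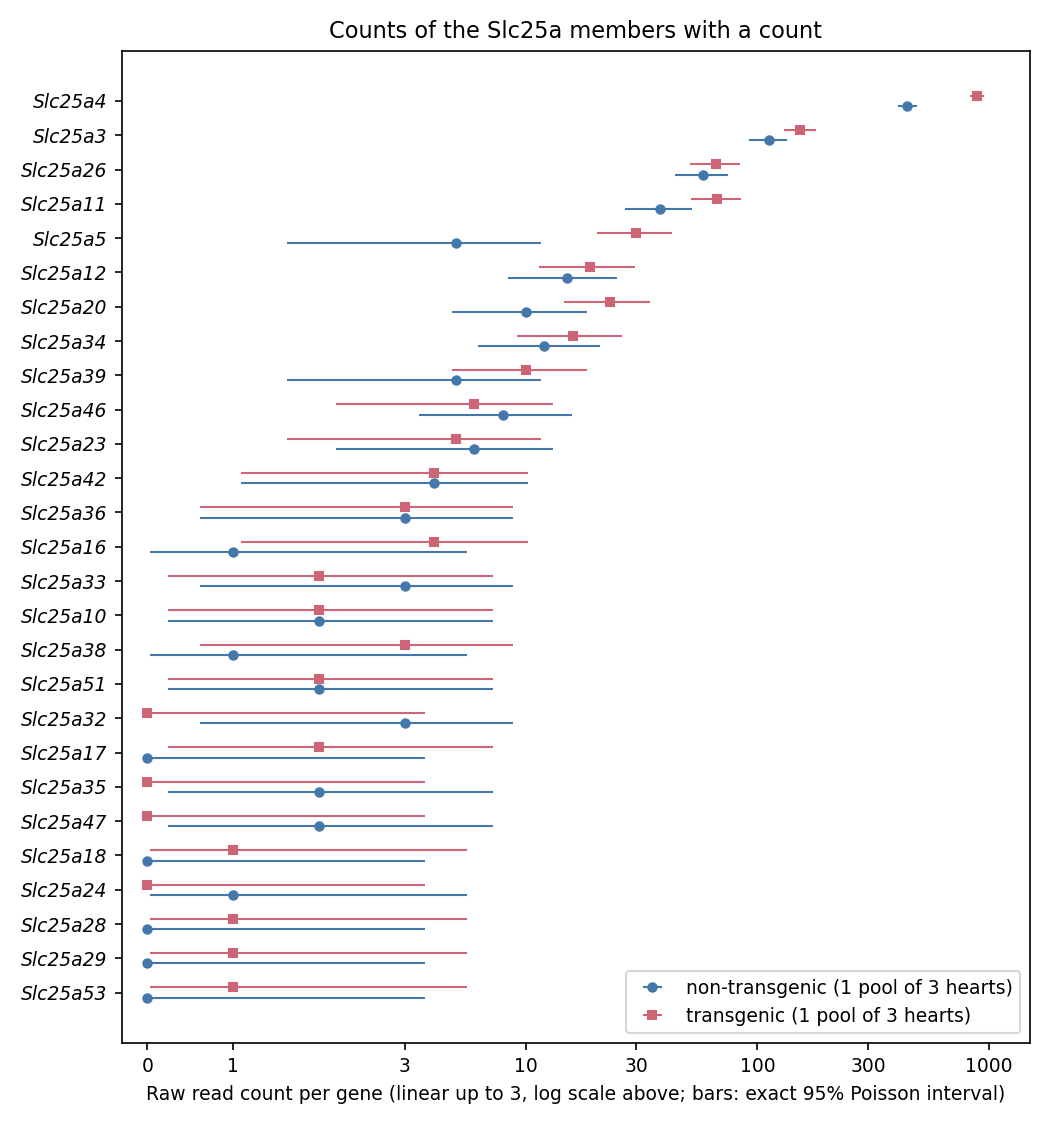
Raw read counts of the 27 Slc25a members with a count, 1 row per gene, in the control library (circles) and the transgenic library (squares), each 1 pool of 3 hearts; the axis is linear up to 3 counts and logarithmic above, and bars are exact 95% Poisson intervals. Slc25a4 stands at 444 and 889 counts, far to the right of every other member, and Slc25a5 at 5 and 30. The counts are not scaled for library size.

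The ADP/ATP carriers bring ADP into the matrix in exchange for ATP. Slc25a4 (ANT1; chromosome 8, 46206797 to 46211284, minus strand, GRCm38) has no exon of an opposite-strand gene within 5 kb. Its level was 2603 CPM in the control and 4659 CPM in the transgenic library, and the ratio of normalised counts was 1.59 (1.42 to 1.79). When ratios were centred on the median of genes of the same strand class (genes without an opposite-strand exon within 5 kb), it was 1.38 (1.23 to 1.55) and Slc25a4 was not counted as higher. Slc25a5 (ANT2; chromosome X, 36795651 to 36798807, plus strand) also has no opposite-strand exon within 5 kb. It stood at 29.3 and 157 CPM, with a ratio of 4.77 (1.83 to 15.7) that rests on 5 counts in the control library. Slc25a31, the ADP/ATP carrier of the testis, had no count in either library.

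The 2 isoforms also differed from each other in how far they moved. Slc25a5 made up 1.11% (exact interval 0.363% to 2.58%) of the Slc25a4 and Slc25a5 counts in the control library and 3.26% (2.21% to 4.63%) in the transgenic library. The ratio for Slc25a5 was 2.99 times that for Slc25a4 (1.14 to 9.95), a figure that does not depend on how the libraries are scaled. Slc25a4 remained the main form in both hearts. Per kilobase of transcript it had 231 counts in the control library, where Slc25a5 had 4.03. In the transgenic library the figures were 462 for Slc25a4 and 24.2 for Slc25a5 per kilobase.

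How well reads of these isoforms can be assigned bears on those values, and their sequences show it. The coding sequences of Slc25a4 and Slc25a5 are both 897 bases long and identical at 695 of them (77.5%), and the longest run they share is 20 bases. Slc25a31, with 963 coding bases, was 67.6% identical to Slc25a4 and 68.3% to Slc25a5 over the aligned bases. The stretch of coding bases 575 to 634, counted from the first base of the start codon, is printed for both from the GENCODE transcripts. It is the first 60-base coding stretch of Slc25a5 that the largest number of other annotated genes hold exactly. Capitals mark the 13 bases at which Slc25a4 and Slc25a5 differ.
Slc25a5: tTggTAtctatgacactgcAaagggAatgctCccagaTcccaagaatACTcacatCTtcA
Slc25a4: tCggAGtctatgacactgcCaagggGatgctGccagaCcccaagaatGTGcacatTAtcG
The Slc25a5 stretch is held letter for letter by transcripts of 4 other annotated genes, and the Slc25a4 stretch by 0. Over the whole Slc25a5 transcript, 555 of 1191 windows of 50 bases (46.6%) also occur in a transcript of another gene, 9 genes in all, among them Slc25a5-ps, and GENCODE lists all 9 as pseudogenes. None of these 9 symbols was found among the genes named in the counts, so no count is credited to them under those symbols. For Slc25a4 the same search found 0 of 1876 windows. A read from a window that Slc25a5 shares with these pseudogenes has more than 1 place in the genome. What the counting did with such reads is not given in the sources used here. The count of Slc25a5 is therefore uncertain in a way that this search did not find for Slc25a4. Only annotated transcripts were searched, so copies elsewhere in the genome would have been missed.

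Of the 12 members with a ratio for which a transcript sequence was found, 6 had no shared window. Slc25a3 shared 3.90% of its windows with a single other gene, Gm13904. Slc25a26 shared 5.07% with Lrig1 and Slc25a23 2.90% with Gm17168, genes that overlap them on the opposite strand. The search covered both strands, so bases at 1 place in the genome can count as shared for these pairs. Slc25a12 shared 2.62% and Slc25a42 3.37% of their windows, with 529 and 627 other genes. Slc25a5 thus stood apart from the other members searched in how much of its transcript also occurs in transcripts of other genes.

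Slc25a3, the carrier that brings phosphate into the matrix for ATP synthase, was the member with the second highest count. Its 112 and 153 counts, 657 and 802 CPM, gave a ratio of 1.09 (0.846 to 1.40), so no difference between the hearts was detectable at this depth. The gene (chromosome 10, 91116574 to 91124059, minus strand) has no opposite-strand exon within 5 kb. The ratio for Slc25a4 was 1.47 times that for Slc25a3 (1.11 to 1.93). The carriers for the substrates of ATP synthase thus did not move by the same factor in these libraries.

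The ratio for Slc25a4 can be set beside the cardiomyocyte markers, whose sum had a ratio above 1 although 1 of the 5 markers with a ratio, Tnnc1, was higher by the rule and 4 were neither. Its ratio was 1.21 times that of the markers summed (1.07 to 1.37) and 1.33 times that of Atp5b, the beta subunit of ATP synthase (1.13 to 1.56). Ratios of ATP synthase genes ranged from 0.398 for Atp5d (4 and 2 counts) to 1.68 for Atp5h, with Atp5b at 1.20. The figure for Atp5b thus holds for that subunit only. The ratio for Slc25a4 was 1.00 times that of Tnnc1, the cardiac troponin C gene and the marker with the highest ratio (0.843 to 1.20). Ckm, the marker with the lowest ratio, had 342 and 396 counts and a ratio below 1, 0.921 (0.795 to 1.07). Slc25a3 stood at 0.827 times the markers (0.642 to 1.07) and Slc25a5 at 3.63 times (1.39 to 12.0). The markers differ from these carriers in strand class. Myl2, with 2405 and 3916 of the marker counts, and Ckm overlap an opposite-strand exon, and Tnni3, Actc1 and Tnnc1 have one within 5 kb. These relative ratios were not centred by strand class, so they can hold differences between the classes. The part of cardiomyocyte content in the ratios of the ADP/ATP carriers was not tested. Markers of other cell types were mixed. The 4 fibroblast genes summed to 32 and 21 counts, a ratio of 0.522 (0.286 to 0.933). Of these, Col3a1 (23 and 14) was lower by the rule, Col1a1 (8 and 5) was neither, and the rest had no ratio. The 3 smooth muscle and pericyte genes summed to 71 and 169, a ratio of 1.89 (1.43 to 2.53), nearly all of it Rgs5. The 4 endothelial genes summed to 216 and 252, a ratio of 0.928 (0.770 to 1.12), and the 3 skeletal muscle genes to 0 and 1.

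**Figure D2:**
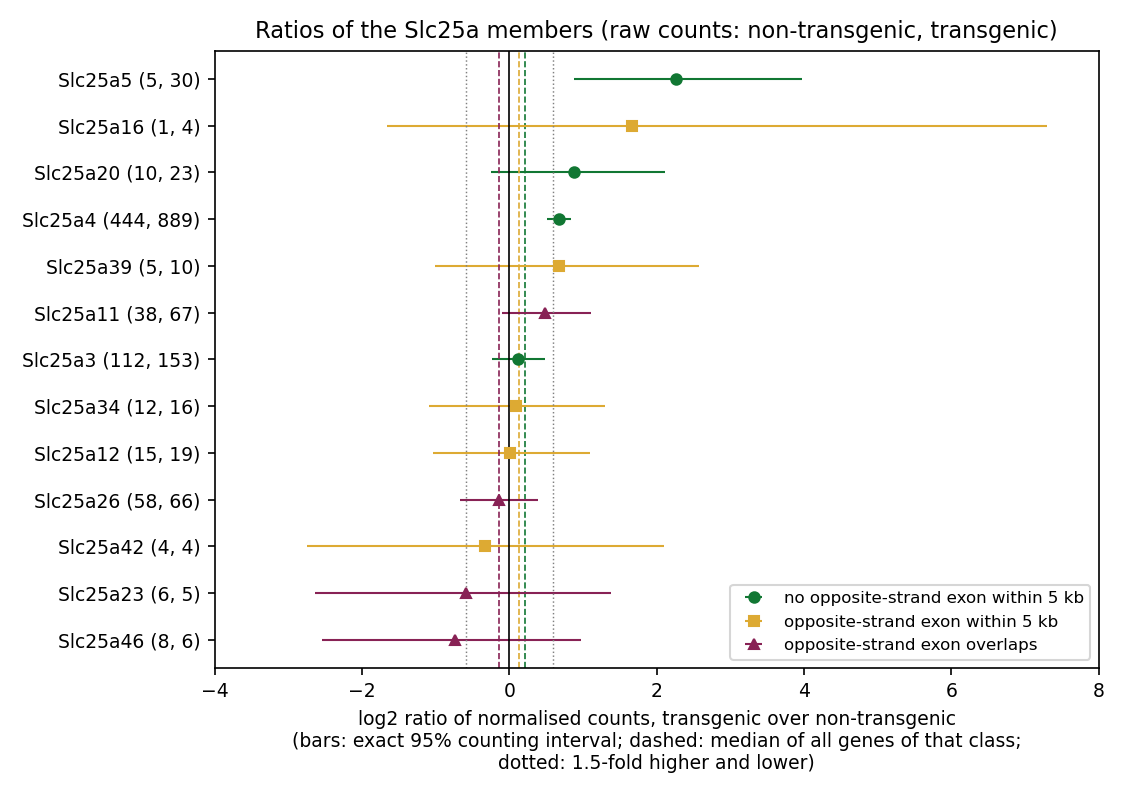
Log2 ratio of normalised counts, transgenic over control, of the 13 Slc25a members with a ratio, ordered by ratio, with raw counts beside each name; bars are exact 95% counting intervals, symbols give the strand class of the gene, dashed lines the median of all genes of that class and dotted lines 1.5-fold. The intervals of Slc25a5 and Slc25a4 lie wholly to the right of 0, and those of the other 11 members cross it.

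The carriers of the malate-aspartate shuttle pass reducing equivalents from cytosolic NADH to the matrix. Slc25a12 (aralar), the aspartate-glutamate carrier of heart, brain and muscle, had 15 and 19 counts and a ratio of 1.01 (0.485 to 2.13). Its paralogue Slc25a13 (citrin), best known from liver, had no count over its 2 accessions. Slc25a11, which exchanges oxoglutarate for malate in the same shuttle, had 38 and 67 counts and a ratio of 1.40 (0.928 to 2.15), an interval that holds both 1 and 1.5. Slc25a11 was counted as higher when the libraries were scaled with DESeq2 size factors (1.51, 1.00 to 2.31), so its place depends on the scaling. The enzymes that work with these carriers did not move as 1 group. Of the 4 shuttle enzyme genes, 3 had a ratio and 1 was higher. Got1, the cytosolic aspartate aminotransferase, had 40 and 144 counts and a ratio of 2.86 (2.0 to 4.17). Its mitochondrial counterpart Got2 had 27 and 34 counts, and its ratio was 1.00 (0.586 to 1.73). Mdh2, mitochondrial malate dehydrogenase, had 137 and 179, with a ratio of 1.04 (0.827 to 1.31).

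Slc25a11 overlaps Rnf167 on the opposite strand by 189 bases, and Rnf167 had no count in either library. Its RefSeq span also ends 32 bases from that of Gp1ba, a gene of the platelet surface that lies on the other strand and was singled out after its values were seen. Gp1ba had 254 and 180 counts, more than Slc25a11 in both libraries, and a ratio of 0.563 (0.463 to 0.685). The ratios of these neighbours thus lay on opposite sides of 1. Whether reads of Slc25a11 were counted on Gp1ba was not tested.

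The remaining carriers of dicarboxylates were barely counted. Slc25a10, the dicarboxylate carrier, had 2 counts in each library. Slc25a1, the citrate carrier that exports citrate for fatty acid synthesis, and Slc25a21, an oxodicarboxylate carrier, had none. The 4 genes of this group summed to 40 and 69 counts, a ratio of 1.37 (0.916 to 2.08), nearly all of it Slc25a11.

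Slc25a20, the carnitine-acylcarnitine carrier that brings long-chain fatty acyl groups to beta-oxidation, had 10 and 23 counts. The ratio was 1.83 (0.837 to 4.30), larger than that of Slc25a4 but with an interval that holds 1. At this depth such a ratio could not be told from no difference. Slc25a20 (chromosome 9, 108662088 to 108684641, plus strand) has no opposite-strand exon within 5 kb. Slc25a29, a carrier of basic amino acids, had 0 and 1 counts. Of the 6 genes of the carnitine shuttle, 3 had a ratio and none was higher or lower. Crat, carnitine acetyltransferase, had 49 and 61 counts and a ratio of 0.990 (0.668 to 1.47), and Cpt2, which releases acyl-CoA in the matrix, had 21 and 23 counts and a ratio of 0.871 (0.461 to 1.65).

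Among carriers of cofactors, nucleotides, glutathione and iron, Slc25a26 was the most counted. Slc25a26 brings S-adenosylmethionine, the methyl donor, into the matrix, and had 58 and 66 counts and a ratio of 0.905 (0.626 to 1.31). It overlaps Lrig1 on the opposite strand by 144 bases, and Lrig1 had 1 and 0 counts. Slc25a39, a glutathione carrier, had 5 and 10 counts and a ratio of 1.59 (0.495 to 5.93). Slc25a42, which carries coenzyme A, had 4 counts in each library, and Slc25a16, also linked to coenzyme A, had 1 and 4. The other members of the group had 3 counts or fewer. Slc25a33 and Slc25a36, carriers of pyrimidine nucleotides, had 3 and 2 and 3 and 3 counts, and Slc25a51, the NAD carrier, had 2 in each. Slc25a32, which carries folate and FAD, had 3 and 0, the peroxisomal Slc25a17 had 0 and 2, and Slc25a28 (mitoferrin 2) had 0 and 1. Slc25a37 (mitoferrin 1) and Slc25a40 (glutathione) had none. The 13 genes of the group summed to 79 and 94 counts, a ratio of 0.946 (0.694 to 1.29).

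The ATP-Mg/phosphate carriers, most of them regulated by calcium, set the size of the adenine nucleotide pool of the matrix. Slc25a23 had 6 and 5 counts, Slc25a24 had 1 and 0, and Slc25a25 and Slc25a41 had none. Slc25a23 overlaps Gm17168 on the opposite strand, which was not analysed here. Carriers of other amino acids were at the edge of detection. Slc25a38, the glycine carrier, had 1 and 3 counts and the glutamate carrier Slc25a18 had 0 and 1, while Slc25a2, Slc25a15, Slc25a22 and Slc25a44 had none. Slc25a18 overlaps Atp6v1e1, a proton pump subunit gene with 16 and 35 counts, on the opposite strand. The uncoupling-protein-like Slc25a14, Slc25a27 and Slc25a30 had no count.

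Of 9 members with no settled substrate, Slc25a34 had 12 and 16 counts and a ratio of 1.06 (0.471 to 2.46). Its opposite-strand neighbour AI507597, which lies 3220 bases from its exons and was singled out after its values were seen, had 181 and 136 counts and a ratio of 0.597 (0.475 to 0.750). Slc25a46, a protein of the outer mitochondrial membrane, had 8 and 6 counts. It overlaps B930094E09Rik on the opposite strand, which was not analysed here. Slc25a35 and Slc25a47 had 2 and 0 counts each and Slc25a53 had 0 and 1, while Slc25a43, Slc25a45, Slc25a48 and Slc25a54 had none.

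The levels of the members in these libraries differed widely. Per kilobase of transcript and over both libraries, Slc25a4 had 692 counts (Poisson interval 656 to 731), followed by Slc25a3 with 164 (145 to 185). Slc25a26 with 64.5 (53.7 to 76.9) and Slc25a11 with 61.4 (50.2 to 74.3) came next and could not be told apart. Slc25a5 with 28.2 (19.7 to 39.3) and Slc25a20 with 18.5 (12.7 to 26.0) also had overlapping intervals, as did Slc25a20 with Slc25a34, at 10.5 (6.97 to 15.2). Slc25a39 stood at 8.90 and Slc25a12 at 5.35 per kilobase, and Slc25a23, Slc25a42 and Slc25a16 between 1.59 and 3.27. Within each library the order of neighbours changed: per kilobase, Slc25a26 and Slc25a11 had 30.2 and 22.2 counts in the control and 34.3 and 39.2 in the transgenic library. The intervals of these 2 genes overlapped in both libraries. In the control library Slc25a20 (5.61) and Slc25a34 (4.49) stood above Slc25a5 (4.03) in counts per kilobase. Those values rest on 10, 12 and 5 counts, with overlapping Poisson intervals (4.80 to 18.4, 6.20 to 21.0 and 1.62 to 11.7 counts), so their order could not be told. In the transgenic library Slc25a5 (24.2) stood above Slc25a20 (12.9) and Slc25a34 (5.99). These rest on 30, 23 and 16 counts, with Poisson intervals of 20.2 to 42.8, 14.6 to 34.5 and 9.15 to 26.0 counts. Per kilobase, too, the intervals of Slc25a5 and Slc25a20 overlap, so the order of these genes could not be told there either. The order over both libraries is that of the counts as deposited and carries the limits of strand and shared reads named above.

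Slc25a4 alone held 60.2% (exact interval 56.6% to 63.8%) of the family's counts in the control library and 67.9% (65.3% to 70.4%) in the transgenic library. All members together summed to 737 and 1310 counts, a ratio of 1.41 (1.29 to 1.55). Without Slc25a4 the sums were 293 and 421 and the ratio 1.14 (0.982 to 1.33). Without Slc25a4 and Slc25a5 they were 288 and 391 and the ratio 1.08 (0.925 to 1.26). The higher sum of the family in the transgenic library was thus mostly that of its ADP/ATP carriers, which summed to 449 and 919 counts, a ratio of 1.63 (1.45 to 1.83). Without Slc25a3 the ratio of the family was 1.47 (1.33 to 1.62).

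Whether a member was counted at all went with the number of RefSeq accessions its gene has. Of 31 members with 1 accession, 24 (77.4%) had a count, and they held 729 and 1302 of the family's counts. Of 16 members with more accessions, 3 (18.8%) had a count, with 8 and 8 counts in all. The 9 members with 3 or more accessions had none, among them Slc25a22, Slc25a25 and Slc25a44. The same split was seen over all protein-coding genes, where 48.1% of 13103 genes with 1 accession and 14.6% of 7578 genes with more had a count. Reads shared by transcripts of 1 gene may be lost when counting is done per transcript, and a count of 0 in these members says little about their expression. Of the 20 members at 0, 7 have a single accession: Slc25a1, Slc25a2, Slc25a30, Slc25a31, Slc25a37, Slc25a48 and Slc25a54. For those a count of 0 allows up to 17.6 CPM in the control and 15.7 CPM in the transgenic library, at 3 counts of the total. This limit covers counting error only and, with the strand setting unknown, puts no bound on their expression.

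**Figure D3:**
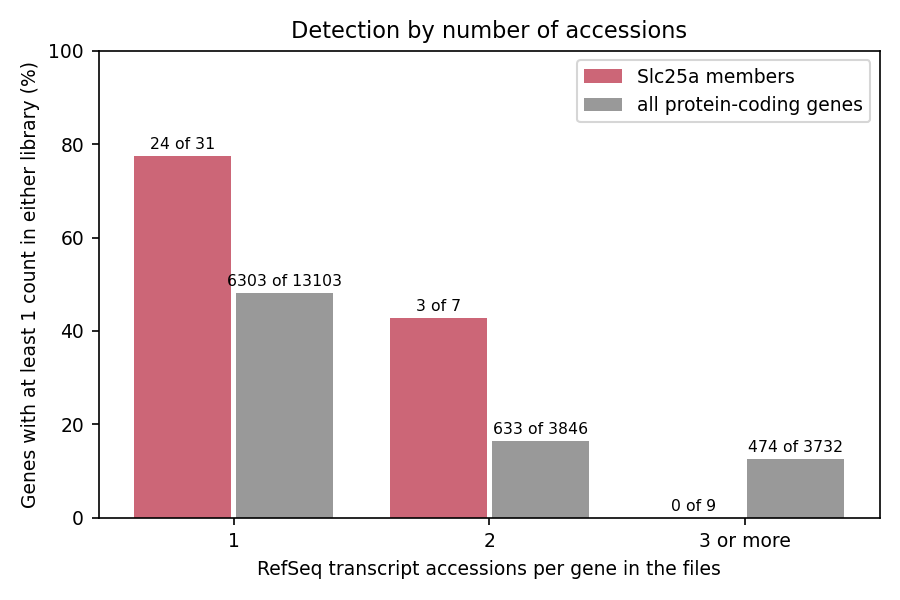
Percentage of genes with at least 1 count in either library, by the number of RefSeq transcript accessions of the gene, for Slc25a members and for all protein-coding genes, with the number of genes above each bar. The share falls from 77.4% to 42.9% to 0% of members and from 48.1% to 16.5% to 12.7% of all protein-coding genes.

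Ratios also went with the position of a gene relative to the opposite strand. Over all genes that could be compared, the log2 ratio had a median of -0.14 for genes that overlap an opposite-strand exon, 0.13 for genes with such an exon within 5 kb and 0.21 for the rest. Of the members with a ratio, 4 overlap an opposite-strand exon, and 3 of them (Slc25a23, Slc25a26 and Slc25a46) lay below 1 and Slc25a11 above it. The 4 with no opposite-strand exon within 5 kb (Slc25a3, Slc25a4, Slc25a5 and Slc25a20) all lay above 1. With ratios centred on these medians, Slc25a5 was still counted as higher and Slc25a4, as given above, was not. The family had most of its counts on genes away from the opposite strand, 77.9% in the control and 84.1% in the transgenic library. Of all counts, 9.47% and 11.6% lay on such genes. Slc25a4 alone gave 444 of these 574 member counts in the control and 889 of 1102 in the transgenic library. By gene, 31.9% of members were in this class, beside 44.6% of all annotated genes.

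Other genes of mitochondrial transport were taken from lists made by function. Carriers of the family that go under other symbols had 1 of 5 genes with a ratio. That was Ucp3, the uncoupling protein of muscle, which was lower, with 20 and 10 counts and a ratio of 0.398 (0.166 to 0.890). SLC25 proteins are made in the cytosol and imported through the TOM and TIM22 complexes with the help of small TIM chaperones. Of 15 such import genes, 8 had a ratio and none was higher or lower, with a median log2 ratio of 0.51. Their counts summed to 56 and 110, a ratio of 1.56 (1.12 to 2.19). The most counted were Timm8b, a small chaperone, with 21 and 41 counts and a ratio of 1.55 (0.896 to 2.77), and Tomm70a, the receptor for carrier precursors, with 11 and 18 counts and a ratio of 1.30 (0.582 to 3.05).

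Of 22 genes of other transport across mitochondrial membranes, 8 had a ratio, 2 were higher and 1 was lower, with a median log2 ratio of 0.03. Vdac2, a pore of the outer membrane, had 24 and 51 counts and a ratio of 1.69 (1.02 to 2.87). Mpc2, a subunit of the pyruvate carrier, had 38 and 73 and a ratio of 1.53 (1.02 to 2.32). Micu2, a regulator of the calcium uniporter, had 15 and 7 counts and a ratio of 0.371 (0.128 to 0.967). Of 18 genes of ATP synthase and mitochondrial creatine kinase, 10 had a ratio and 1 was higher, Atp5h, a stalk subunit, with 52 and 110 counts and a ratio of 1.68 (1.20 to 2.39). That list had a median log2 ratio of 0.24 and summed to 1573 and 2453 counts, a ratio of 1.24 (1.16 to 1.32).

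**Figure D4:**
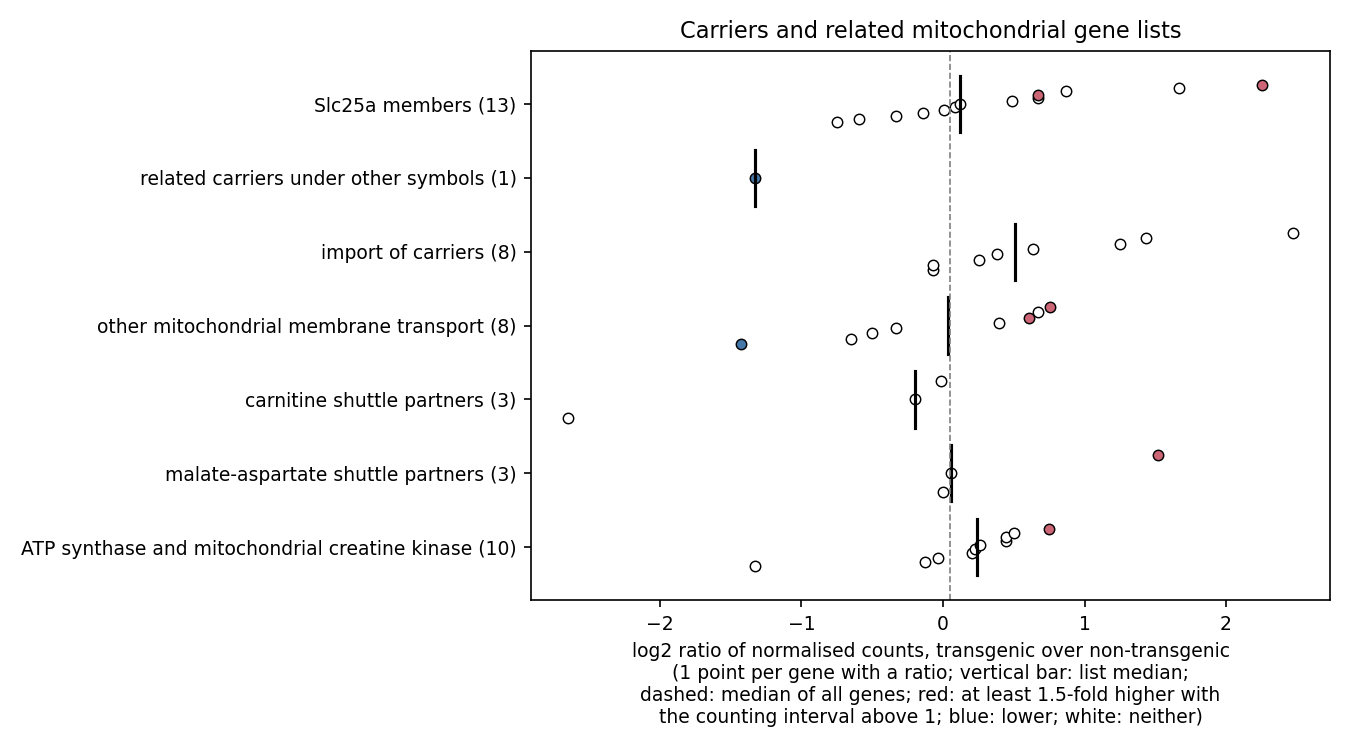
Log2 ratio of normalised counts, transgenic over control, of every gene with a ratio in the Slc25a family and in 6 lists of related mitochondrial genes, with the number of genes in brackets; red points are at least 1.5-fold higher and blue points at least 1.5-fold lower with the counting interval on the same side of 1, black bars are list medians and the dashed line is the median of all genes. The medians, 0.51 for the import genes and 0.12 for the Slc25a members among them, rest on few genes, none of the 8 import genes is coloured, and the lists are not compared with each other.

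The 250 bases upstream of the annotated starts were searched for 5 short motifs on both strands, in 46 entries of 36 members and in 32851 entries of all genes from RefSeq (GRCm38.p6). Starts of 1 gene can lie close together, so their entries share bases. The GC box GGGCGG was found in 69.6% of the member entries and 32.7% of all entries, and the E-box CACGTG in 17.4% and 6.02%. The NRF1 core GCATGCGC, a site of a factor that drives many mitochondrial genes, was in 4.35% and 2.26%. The motif TCAAGGTCA of the estrogen-related receptors was in 0% and 0.387%, and the YY1 motif CCATCTTG in 0% and 1.26%. Of the ADP/ATP carriers, Slc25a5 had a GC box and none of the other motifs. The Slc25a4 entry had none of the 5, but its start lies inside the gene as GENCODE gives it. That entry runs from 46211013 to 46211312, and the GENCODE gene, on the minus strand, begins at 46211284. Most of the bases searched for Slc25a4 were thus within the gene, and all of those for Slc25a11 and Slc25a39 were. The motif results are matches of letters only. All entries had a median of 52.4% G and C, and the member entries were not compared with them in this, which bears on the GC box.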

How the data were processed

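The deposited values are raw read counts per RefSeq transcript accession, 1 table for each of the 2 libraries. Per the labels' protocols, libraries were made with a stranded TruSeq kit. STAR, HTSeq and the build mm10 are listed in the submitters' processing notes, and their versions, the annotation and the strand setting were not given in the sources used.

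A RefSeq gene table named 41252 accessions and GENCODE M21 another 99, and counts were summed per gene; 98 unnamed accessions held 1.81% and 1.66% of the counts. TMM factors (0.943 and 1.06) came from edgeR 4.0.16 in R 4.3.3, which with 1 library per group gave no test. Ratios have exact 95% Clopper-Pearson intervals from the binomial share of the counts. Strand classes use exons of GENCODE M21 (GRCm38, the assembly also called mm10), with an overlap of at least 1 bp. Calculations used Python 3.11.15, numpy 2.4.6, pandas 2.3.3 and scipy 1.17.1, were tested on simulated data, and were drawn with matplotlib 3.10.9. Alternatives included DESeq2 1.42.0 size factors, upper-quartile factors and total counts alone.

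The members, lists and strand classes were chosen with earlier results of these data known. Every member with a ratio is named with its counts, and a ratio is given from 10 counts in a library or where a member was counted as higher. Of each related list, up to 4 genes counted as higher or lower are named, or else its 2 most counted genes. Of the members without a ratio, 1 is not reported here individually. Protein sequences were not used here. The planned motif search in proteins was not run.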

Additional observations from a re-analysis of the deposited data

How the results depend on the processing

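With 1 library per group no replicate could be left out. No paired analysis was possible either, as each group is 1 pool of hearts. The number of members counted as higher was 2 and became 1 at 2-fold in place of 1.5-fold, and 3 under scaling by DESeq2 or by total counts, where Slc25a11 was added. Centred within strand class it was again 2, Slc25a5 and Slc25a11. The number counted as lower was 0 throughout. The median log2 ratio of members with a ratio, 0.12, was 0.23 with DESeq2 size factors, 0.29 with total counts alone and -0.01 (-0.00623) when centred within strand class. It was 0.49 when a ratio needed at least 10 counts and 0.67 without members that overlap an opposite-strand gene, where fewer members have a ratio. The log2 ratio of the family's summed counts, 0.50, was 0.67 with total counts alone and 0.34 when centred, that of the ADP/ATP carriers, 0.70, was 0.87 and 0.49, and that of Slc25a4, 0.67, was 0.84 and 0.46. Slc25a3, Slc25a12, Slc25a26 and Slc25a34 changed sign under at least 1 scaling or centring, all with intervals that hold 1. The median of all genes moved by 0.11 under DESeq2 scaling and by 0.17 under total counts, and the share of higher genes among all genes counted as higher or lower went from 36.7% to 54.1% and 62.2%. Depth limits most members: 9 of 47 reached 10 counts in a library.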
